A study of Oryctolagus cuniculus with 8 samples.

Results

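The Notch gene set described here holds 10 genes chosen by name: the ligand genes JAG1, JAG2 and DLL4, the receptor genes NOTCH2, NOTCH3 and NOTCH4, RBPJ, and the target genes HES1, HEY1 and HEYL. Of these 10, 8 have a row in the table of 20922 gene entries, and all 8 passed the filter on low counts that left 10004 tested genes. JAG2 and NOTCH3, like the receptor gene NOTCH1 and the ligand gene DLL1, were not analysed here.

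Notch signalling passes between touching cells. A ligand of the Jagged or Delta family on 1 cell binds a Notch receptor on its neighbour, proteases release the receptor's inner part, and that part joins the DNA-binding protein RBPJ to switch on repressor genes of the HES and HEY families. The pathway is known for keeping progenitor cells and their daughters apart in stratified epithelia, and for sprouting and arterial identity in blood vessels.

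The samples were limbal epithelial cells of New Zealand white rabbits, from the rim between cornea and conjunctiva, separated after staining with the DNA dye Hoechst 33342 and sequenced on an Ion Proton instrument. The dim cells that pump the dye out form the side population (SP, 4 libraries), and the remaining cells the non-side population (NSP, 4 libraries). The labels name no genotype or treatment besides the dye, which both groups received, and no age. The comparison asks which genes differ between dye-excluding and other limbal cells.

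The libraries held 15553295 to 18931836 exon reads in SP and 20445565 to 23529101 in NSP. Levels are CPM, reads per 1000000 reads of a library after scaling the libraries to each other, and mean ± SD values are over the 4 libraries of a group. A log2 fold change is SP over NSP with its standard error from limma-voom, and a gene was called at a Benjamini-Hochberg adjusted p under 0.05 over all tested genes. Column headers show only SP or NSP; library numbers 1 to 4 follow the columns and do not tie SP to NSP libraries. Whether each library is a different animal is not stated, and the p-values therefore rest on a spread between libraries that may be technical.

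The labelled cell type was checked first against epithelial markers. Summed limbal and corneal epithelial markers were at 23699 to 43110 CPM in NSP and at 1092 to 7953 CPM in SP, and 15 of 16 tested markers were lower in SP. All 11 tested endothelial markers, 6 of 6 melanocyte markers, 5 of 6 myeloid, 5 of 5 T and NK cell, 5 of 6 stromal, 3 of 4 Schwann cell and 3 of 4 leukocyte markers were higher in SP. Mural cell markers, of pericytes and vessel muscle, were mixed, with 3 of 7 higher and 1 lower. In these bulk samples, fewer cells of a type and less RNA per cell cannot be told apart.

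In SP libraries 3 of the 8 measured genes were higher (DLL4, HEYL and RBPJ), 1 was lower (JAG1), and 4 were not called (HES1, HEY1, NOTCH2 and NOTCH4). Over all tested genes, 17.5% were called higher and 13.3% lower in SP, 30.8% in all. Of those calls 56.9% were higher in SP, or 45.9% with upper-quartile scaling, under which the same 4 members were called. The members' shares were 37.5% higher and 12.5% lower, and nothing particular to the set is read from 4 calls among 8 genes. The median log2 fold change was 0.95 over the 8 members and 0.11 over all tested genes. SP and NSP libraries did not overlap for 4 of the 8 members, the same 4 that were called, against 32.8% of all tested genes.

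**Figure D1:**
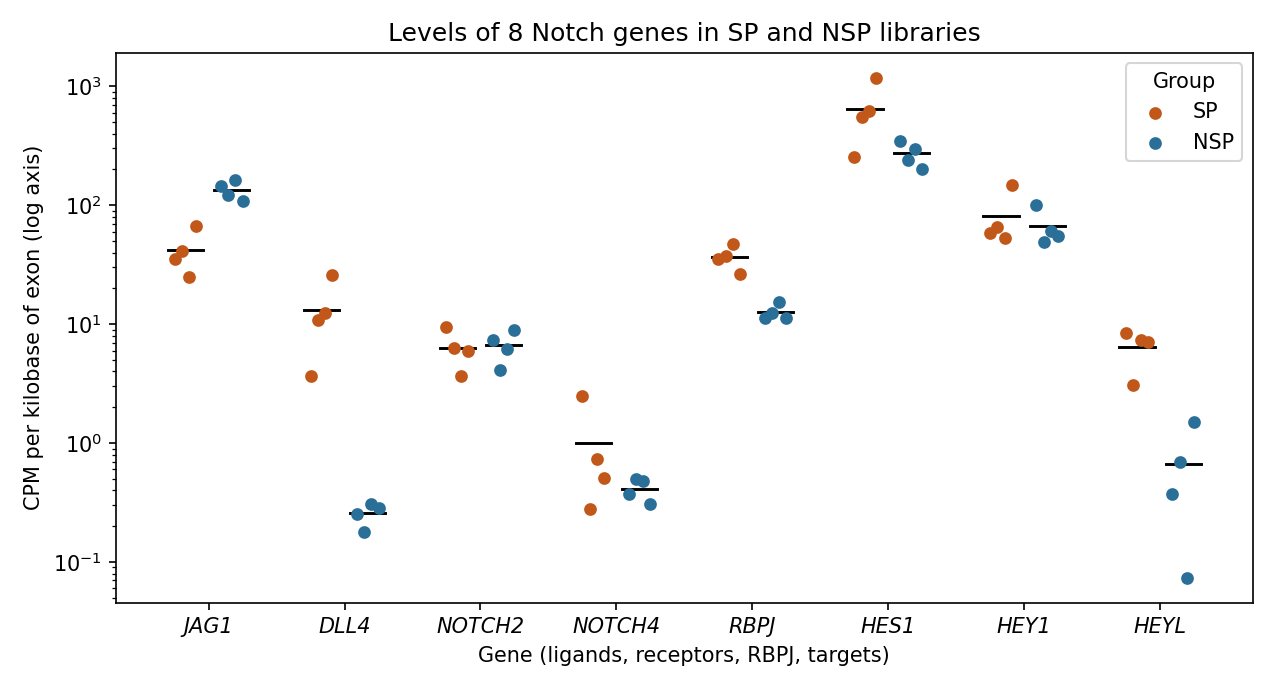
Level of 8 Notch genes in each library, as CPM per kilobase of exon on a log axis, with SP libraries in orange, NSP libraries in blue and a black line at each group's mean. DLL4, RBPJ and HEYL lie higher in all 4 SP than in all 4 NSP libraries, JAG1 lies lower, and the other 4 genes overlap.

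The ligand genes moved in opposite directions. JAG1 encodes Jagged1, a ligand made in epithelia and in vessels. It was at 196, 227, 137 and 369 CPM in SP libraries 1 to 4 and at 798, 673, 895.5 and 605 CPM in NSP libraries 1 to 4. Every NSP library lay above every SP library, and SP library 4 came nearest to the NSP range. SP averaged 232 ± 98.4 CPM, NSP 743 ± 129 CPM, and the log2 fold change was -1.75 ± 0.30 (adjusted p = 0.00204 by limma-voom). JAG1 thus stood 3.37-fold lower in SP, in the libraries where epithelial markers were lower too. The part of those epithelial markers in its fall was not tested.

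DLL4 encodes Delta-like 4, the ligand that endothelial tip cells use to hold back their neighbours during vessel sprouting. Its reads numbered 233, 716, 785 and 1262 in the SP libraries and 19, 13, 21 and 20 in the NSP libraries. That gave 12.6, 37.0, 41.9 and 87.6 CPM in SP against 0.859, 0.603, 1.05 and 0.972 CPM in NSP. The lowest SP library stood far above the highest NSP library, and SP libraries differed by up to 6.98-fold among themselves. The log2 fold change was 5.33 ± 1.04 (limma-voom adjusted p = 0.00364), with a 95% confidence interval from 3.04 to 7.63. At 13 to 21 reads per library, the NSP level is set by few reads.

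Compared per kilobase of exon, JAG1 outweighed DLL4 in all 8 libraries, by very different margins. The ratio of JAG1 to DLL4 was 572, 686, 524 and 383 in the NSP libraries. In the SP libraries it was 9.60, 3.77, 2.01 and 2.59. The ratio was thus far lower in every SP library than in any NSP library. It was chosen after its values were seen and was not tested, like the other ratios below, and JAG2 and DLL1 are missing from this balance.

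The receptor genes were not called. NOTCH2, which encodes a widely expressed Notch receptor, was at 70.6, 47.2, 27.5 and 44.4 CPM in SP and at 55.7, 30.9, 46.7 and 66.6 CPM in NSP. The groups overlapped almost entirely. Its log2 fold change was -0.10 ± 0.34 (limma-voom adjusted p = 0.854), with a 95% confidence interval from -0.85 to 0.65, which leaves room for changes of moderate size in either direction.

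NOTCH4 encodes the receptor best known from endothelial cells. It was at 16.5 CPM in SP library 1 but at 1.86, 4.86 and 3.40 CPM in SP libraries 2 to 4, and at 2.485, 3.29, 3.20 and 2.04 CPM in NSP. SP library 1 stood far above the NSP libraries and libraries 3 and 4 slightly above them, while SP library 2 stood below them all. The log2 fold change of 0.82 ± 0.69 was not called (adjusted p = 0.398), and without SP library 1 it was 0.20 (adjusted p = 0.818). NOTCH4 did not follow the endothelial markers across SP libraries: library 1, its highest, had the lowest endothelial sum. Per kilobase, NOTCH4 over the endothelial adhesion gene PECAM1 ranged from 0.00144 to 0.0379, a 26.4-fold spread with library 1 highest.

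RBPJ encodes the DNA-binding protein on which canonical Notch signals converge; without a Notch fragment it holds targets repressed. It was at 178, 190.5, 238 and 134 CPM in SP and at 57.65, 63.2, 78.4 and 57.4 CPM in NSP. All 4 SP libraries lay above all 4 NSP libraries, and the spread within each group was the smallest of the 8 genes, with a coefficient of variation of 23.0% in SP and 15.4% in NSP. The log2 fold change was 1.51 ± 0.24 (limma-voom adjusted p = 0.00121), or 2.86-fold higher in SP. RBPJ thus had the smallest p of the set although DLL4 and HEYL had larger changes.

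HES1 encodes a transcriptional repressor and is widely used as a readout of Notch activity. Its levels were 474, 1018, 1146 and 2184 CPM in SP against 647, 447, 557 and 376 CPM in NSP. SP libraries 2 to 4 lay above every NSP library, while SP library 1 fell inside the NSP range. The log2 fold change was 1.08 ± 0.41 with an adjusted p of 0.0674 by limma-voom, so HES1 was not called. It was called without SP library 1 (1.46, adjusted p = 0.00704), with sample quality weights (1.11, adjusted p = 0.0184) and with plain library totals (1.13, adjusted p = 0.0383). Over all 15 alternatives its adjusted p ranged from 0.00704 to 0.203, and without SP library 4 the log2 fold change was 0.57.

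HEY1 and HEYL encode related repressors, HEY1 being known from vessels and several epithelia and HEYL from vessel wall cells, among others. HEY1 was at 124, 140.1, 114 and 314 CPM in SP and at 216, 105.7, 129.6 and 117 CPM in NSP. SP library 4 and NSP library 1 were high, and the remaining 6 libraries lay close together. Its log2 fold change was 0.21 ± 0.35 (limma-voom adjusted p = 0.691), and it was -0.27 without SP library 4. HEY1 was thus not called in any alternative, with a 95% confidence interval from -0.57 to 0.99.

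HEYL was at 28.5, 10.3, 24.8 and 23.8 CPM in SP and at 1.265, 2.37, 0.250 and 5.10 CPM in NSP. The SP libraries were all higher, and the NSP libraries spread over 20.4-fold where library 3 held 5 reads and library 4 held 105. The log2 fold change was 3.80 ± 0.79 (limma-voom adjusted p = 0.00511). Its size depended on how NSP was weighed: it was 2.71 with sample quality weights, 3.03 without NSP library 3 and 4.39 without NSP library 4, called in each case. In all of them the SP level stayed above that of NSP.

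**Figure D2:**
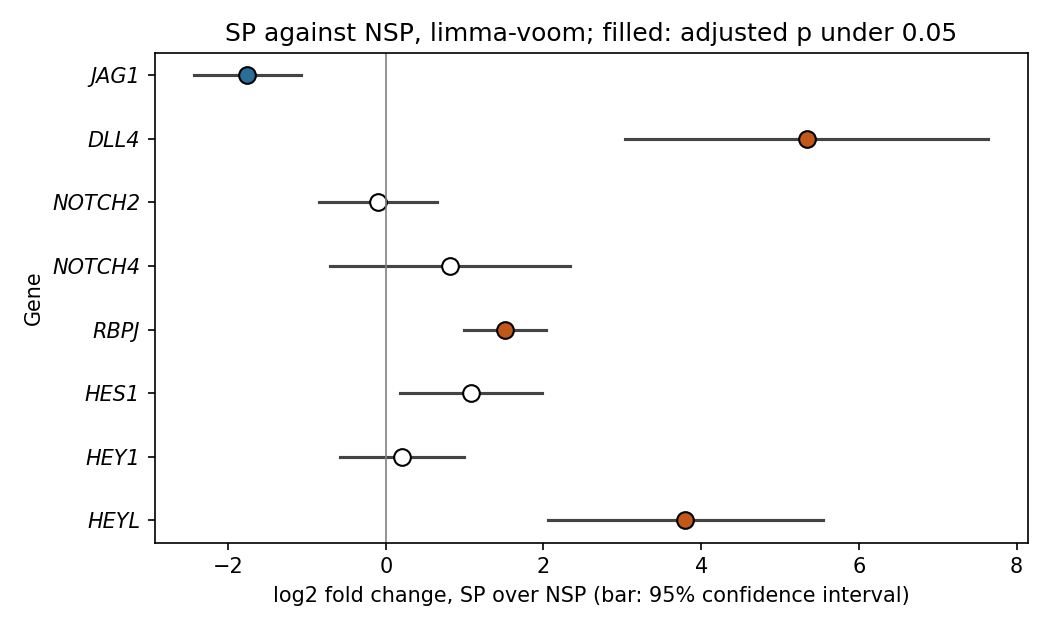
log2 fold change of 8 Notch genes, SP over NSP, with 95% confidence intervals from limma-voom; orange points are called higher in SP, the blue point is called lower, and open points are not called. DLL4 has the largest change and the widest interval, from 3.04 to 7.63, while the intervals of NOTCH2, NOTCH4 and HEY1 span 0.

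The authors' deposited table gives an EDGE test for the same comparison. Its corrected p-values in the authors' deposited table are 8.1e-15 for DLL4, 0.000253 for JAG1, 0.000551 for HEYL and 0.000981 for RBPJ. For HES1 the authors' deposited table gives 0.0701, for NOTCH4 0.461, and for NOTCH2 and HEY1 1. At 0.05 the EDGE test of the authors' deposited table and limma-voom call the same 4 of these 8 genes.

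Ordered by CPM per kilobase, the members took a steep ladder in NSP: HES1 at 272.5, JAG1 at 134, HEY1 at 66.5, RBPJ at 12.65, NOTCH2 at 6.64, HEYL at 0.664, NOTCH4 at 0.414 and DLL4 at 0.256. The ranges of neighbours overlapped only from HEYL to NOTCH4 and from NOTCH4 to DLL4. In SP the order was HES1 at 648, HEY1 at 81.0, JAG1 at 42.0, RBPJ at 36.5, DLL4 at 13.2, HEYL at 6.46, NOTCH2 at 6.30 and NOTCH4 at 1. Here HEY1, JAG1 and RBPJ overlapped as neighbours, as did DLL4, HEYL and NOTCH2. HES1 led in both groups and stood above 98.6% of tested genes in SP and 96.8% in NSP. DLL4 stood above 58.0% of tested genes in SP and 7.1% in NSP.

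Within a library, the ratio of HES1 to JAG1 per kilobase was steady in NSP, at 2.41, 1.97, 1.85 and 1.85. In SP it was 7.19, 13.4, 24.8 and 17.6. HES1 thus stood further above JAG1 in every SP library than in any NSP library. The ratio of HES1 to HEY1 overlapped between the groups, at 4.38 to 11.54 in SP and 3.44 to 4.94 in NSP.

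The SP libraries differed among themselves, and the members did not all differ together. SP library 4 held the highest level of JAG1, DLL4, HES1 and HEY1, library 1 that of NOTCH2, NOTCH4 and HEYL, and library 3 that of RBPJ. JAG1 and HEY1 had the same order, rising from library 3 through 1 and 2 to 4. The summed endothelial markers were 1983, 5988, 7316 and 18042 CPM in SP libraries 1 to 4, and 10.7 to 18.4 CPM in NSP. DLL4 and HES1 followed the same order over SP libraries, as did 10.6% of all tested genes. Singly, 6 of the 11 endothelial markers had this order, PECAM1 and VWF among them, and the sum kept it without VWF, its largest gene. None of the 11 was at 0 in all NSP libraries. PECAM1 had 4, 3, 0 and 0 reads there, and the endothelial cadherin gene CDH5 2 reads in library 4 alone.

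Across the SP libraries, DLL4 kept a nearly fixed proportion to PECAM1. Per kilobase, DLL4 over PECAM1 was 0.0564, 0.0559, 0.0617 and 0.0727 in SP libraries 1 to 4, a 1.30-fold spread, while DLL4 itself spread over 6.98-fold. In NSP libraries 1 and 2 the ratio to PECAM1 was 4.69 and 4.28, on only 4 and 3 PECAM1 reads. Against CDH5 the ratio ran from 0.305 to 0.596 in SP. The other endothelial markers were not set against DLL4 in this way. DLL4 is also used as a sign of arterial endothelium, and of the arterial list 1 of 4 tested genes was higher in SP. Its sum was 72.1 to 279.9 CPM in SP against 25.99 to 52.2 CPM in NSP, but that gap came from SOX17, the called gene, which also stands in the endothelial list. Without SOX17 the arterial sums overlapped, at 40.01 to 63.3 CPM in SP and at 23.75 to 50.2 CPM in NSP. SEMA3G was at 0 in all NSP libraries and in SP libraries 1 and 3. The part of endothelial RNA in the DLL4 and HES1 levels was not tested.

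RBPJ took another order over SP libraries, lowest in library 4 and then rising through 1 and 2 to 3. The summed myeloid markers had that order, at 918, 952, 1444 and 2294 CPM, and so did the leukocyte markers. The myeloid order rested on LAPTM5, which made up 72.9% to 86.7% of the sum in SP and was the 1 marker of 6 with this order. Without LAPTM5 the sum rose from library 1 through 2 and 4 to 3, which is not the order of RBPJ. Of the 4 leukocyte markers, PTPRC and LCP1 had the order of RBPJ. This order was shared by 4.93% of all tested genes. In NSP the myeloid sum was 28.2 to 55.5 CPM, and no myeloid marker with a row was at 0 in all NSP libraries. The part of myeloid or other leukocyte RNA in the RBPJ level was not tested.

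HEYL followed the summed melanocyte markers in both groups, in NSP only with TYRP1 in the sum. From low to high its order was SP library 2, 4, 3 and 1, where the melanocyte sum was 1829, 2456, 7925 and 12807 CPM. In NSP its order was library 3, 1, 2 and 4, where the sum was 90.9, 173, 179 and 259.8 CPM. HEYL was the only member to share an order with a marker list in both groups, and 0.16% of all tested genes shared this one. The Schwann cell list had the same NSP order, so HEYL followed it there too. Its SP order differed only in libraries 4 and 2, where the Schwann cell sum was 139 and 159 CPM. NOTCH4 also took the melanocyte order in SP, but not in NSP. Singly, 4 of the 6 melanocyte markers had the SP order and 3 the NSP order. Without TYRP1, the largest gene of the list, the sum kept the SP order. In NSP, library 1 then stood above library 2, which is not the order of HEYL. No melanocyte marker with a row was at 0 in all libraries of a group. HEYL is known from mural cells, whose markers summed to 40.5 to 122 CPM in SP against 21.3 to 72.5 CPM in NSP, ranges that overlap. Among them PDGFRB (log2 fold change 5.46), ABCC9 (4.90) and TAGLN (3.01) were called higher in SP, and the pericyte gene RGS5 (-3.98) was called lower. Desmin (DES) was at 0 in all SP libraries and did not pass the filter. The part of melanocyte, Schwann cell or mural RNA in the HEYL level was not tested.

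**Figure D3:**
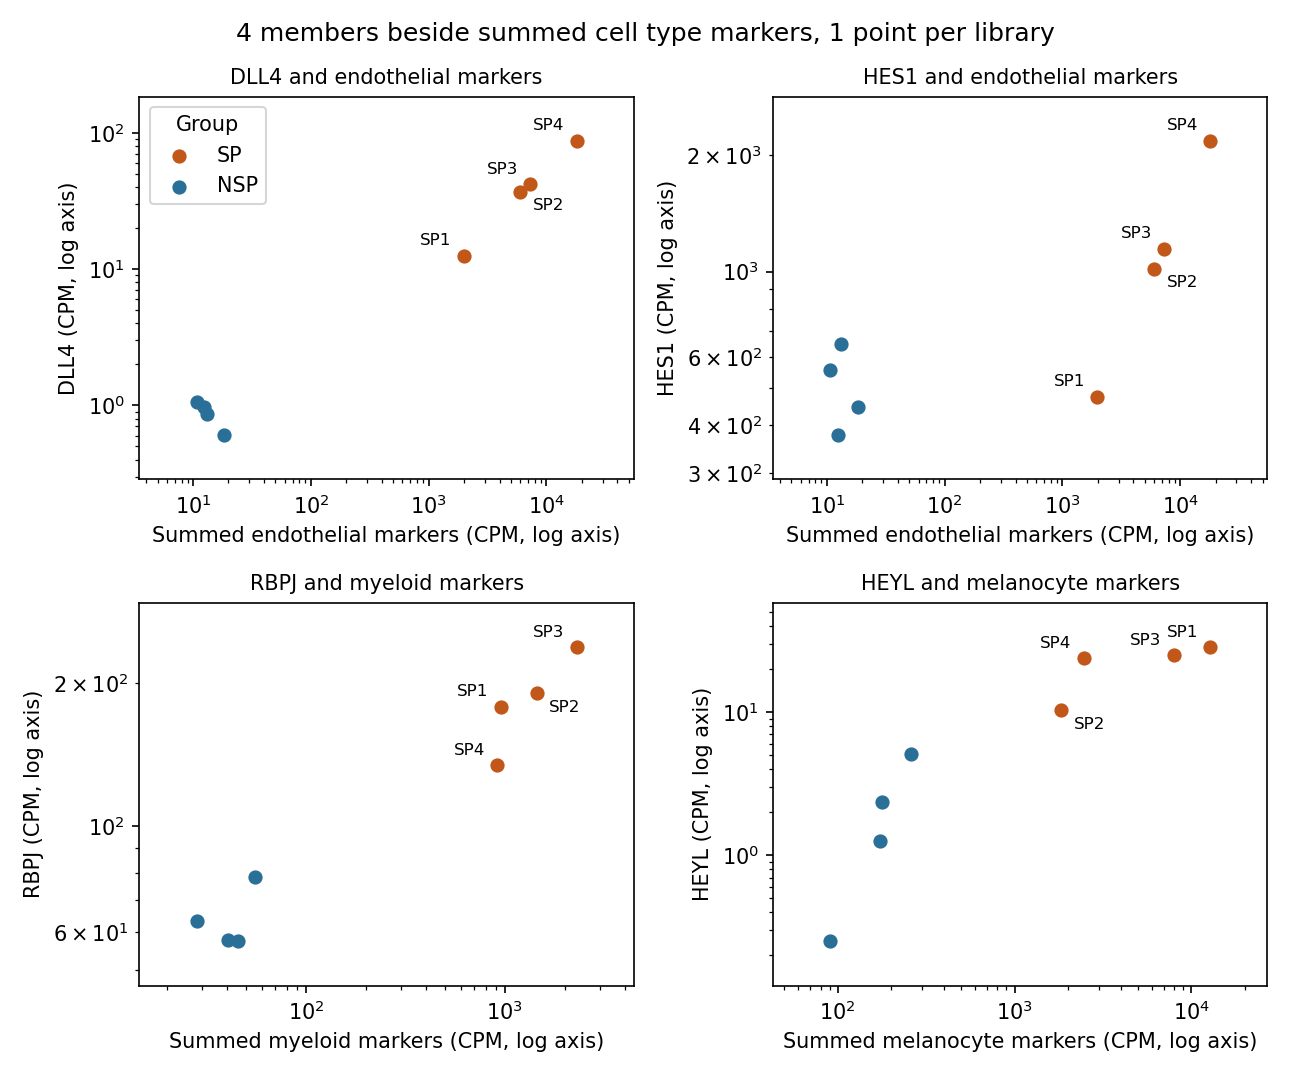
DLL4 and HES1 against summed endothelial markers, RBPJ against summed myeloid markers and HEYL against summed melanocyte markers, in CPM on log axes, with 1 point per library (SP orange and numbered, NSP blue). In each panel the 4 SP libraries keep the same order on both axes, in the RBPJ panel through LAPTM5. In the HEYL panel the 4 NSP libraries do so as well, through TYRP1.

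These orders were picked out of 80 pairings of 8 members with 10 marker lists, of which 8 shared the SP order, 4 the NSP order and 1 both. The endothelial and arterial lists had the same SP order, the arterial list only through SOX17, which stands in both. The myeloid and leukocyte lists likewise had the same SP order. The melanocyte and Schwann cell lists had the same NSP order. These pairings are therefore not separate. The order of JAG1 over SP libraries matched none of the 10 summed lists. It did match the epithelial sum once KRT12, the largest gene of that list, was left out. KRT12 made up 6.5% to 47.8% of the epithelial sum in SP. An order over 4 libraries is a description of these libraries.

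For each called member, the genes closest to it were taken by the correlation of log2(CPM + 0.5) over all 8 libraries, among 6143 genes with a mean of at least 10 CPM. The gap between SP and NSP dominates this measure. Closest to JAG1 were SLIT3 (r = 0.990), HSBP1 (0.989) and SLC38A7 (0.985), which all had negative log2 fold changes. DLL4 was nearest to ARAP3 (0.998), CILP (0.998) and ICA1 (0.997). Next to RBPJ stood CAMLG (0.997), FCER1G (0.994) and SDCBP (0.992), of which FCER1G is one of the myeloid markers used above. Nearest to HEYL were DAAM2 (0.981), the melanocyte gene DCT (0.975), also a marker used above, and UTP6 (0.974).

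The rest of the pathway was described by a list of 91 genes without the 10 members, grouped by role. Of these, 53 have a row and 46 were tested, with 11 higher in SP, 5 lower and 30 not called. The median log2 fold change over the 46 was 0.30, against 0.11 over all tested genes. The 16 calls among 46 are close to the background of 30.8%.

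Among ligand-like genes, 1 of 4 tested was higher and 1 lower. DLK2, which encodes a membrane protein of the Delta-like family, was at 9.44, 8.17, 2.85 and 6.22 CPM in NSP, while the SP libraries together held 9 reads, in libraries 2 and 4. Its log2 fold change was -6.21 ± 1.12 (limma-voom adjusted p = 0.00249), but -6.95 without SP library 2 and -3.45 with limma-trend. MFAP5, a microfibril gene whose product can bind Jagged1, was higher (7.08 ± 1.14) and had no read in 3 of the 4 NSP libraries. With 15 reads in NSP library 4 alone, its log2 fold change was 8.32 without that library, 6.03 with sample quality weights and 3.65 with limma-trend. Of 3 neuralized genes, which encode ubiquitin ligases, 2 were higher: NEURL1 at 2.55 ± 0.66 and NEURL1B at 4.03 ± 1.16 (adjusted p = 0.0143 and 0.0237). NEURL1B was at 9.54, 50.6, 59.7 and 173 CPM in SP libraries 1 to 4, the order also seen for DLL4, and it lost its call whichever NSP library was left out (adjusted p up to 0.0708). Its log2 fold change was 4.82 without SP library 1 and 3.31 without SP library 4. NEURL3, the third, had 3 to 29 reads in SP and 0 to 17 in NSP and did not pass the filter. The ligase gene MIB1 was not called (0.55 ± 0.40).

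Of 3 tested genes that attach sugars to Notch receptors, EOGT was lower, at 18.6 ± 4.29 CPM in SP against 69.7 ± 24.1 CPM in NSP, a log2 difference of -1.88 ± 0.34 (adjusted p = 0.00253). The other two, POGLUT1 and GXYLT1, were not called. Among 6 protease genes, 2 genes of the gamma-secretase complex, which makes the final cut in the receptor, were higher. PSEN2 was at 202 ± 61.5 CPM in SP against 58.8 ± 3.64 CPM in NSP (1.73 ± 0.24, adjusted p = 0.000699), and APH1B rose by 0.91 ± 0.24 on the log2 scale (adjusted p = 0.0149, or 0.0612 without NSP library 4). APH1A (0.03 ± 0.54), the counterpart of APH1B, and the shared subunit NCSTN (0.09 ± 0.24) were not called. ADAM10, the protease of the preceding cut, had a log2 fold change of 0.89 ± 0.32 and was not called (adjusted p = 0.0567).

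Among 8 genes of receptor turnover, DTX3L was higher (2.00 ± 0.39), while DTX2 (-1.16 ± 0.34) and FBXW7 (-0.86 ± 0.23), the ubiquitin ligase gene that ends the life of the active Notch fragment, were lower. NUMB, which encodes an inhibitor that cells can inherit unequally at division, was at 137 ± 21.3 CPM in SP against 138 ± 28.2 CPM in NSP and was not called. The call of DTX2 was lost without SP library 3 or NSP library 2 or 4 (adjusted p up to 0.0768). None of 5 tested nuclear co-activator genes was called by limma-voom, and 2 had an unadjusted p under 0.05: MAML2 (-0.57 ± 0.24) and MAML3 (-0.81 ± 0.35), which encode partners of the Notch fragment on DNA. Of 6 co-repressor genes 3 were higher, led by TLE1 at 130.2 ± 14.95 CPM in SP against 31.7 ± 11.03 CPM in NSP (2.11 ± 0.29, adjusted p = 0.00066). CIR1 (1.38 ± 0.38) lost its call without NSP library 1 or 2, and TLE4 (0.87 ± 0.29, adjusted p = 0.0421) kept it in only 6 of 15 alternatives.

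Of 11 tested target genes other than the members, 2 were higher, 1 was lower and 8 were not called. GATA3 (1.91 ± 0.42, limma-voom adjusted p = 0.00712) and the lymphoid gene IL7R were the rises. GATA3 was at 22.6 to 65.3 CPM in SP and was present in every NSP library, at 7.76 to 12.6 CPM. T and NK cell markers summed to 269 to 824 CPM in SP against 3.02 to 6.85 CPM in NSP, with CD8B at 0 in all NSP libraries. The part of lymphocyte RNA in these rises was not tested. IL7R had 488, 387, 963 and 49 reads in SP and none in NSP, and was at least 710-fold higher in SP, with the floor set at 3 reads summed over the 4 NSP libraries. CDKN1A, the cell cycle inhibitor gene, was lower (-1.09 ± 0.29, adjusted p = 0.0177, or 0.0534 without NSP library 2). HEY2, the closest relative of HEY1, was at 1.86 ± 1.64 CPM in SP against 0.968 ± 0.178 CPM in NSP and was not called. MYC was not called either, at 389 ± 162 and 371 ± 36.6 CPM. Floors cover counting error only.

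**Figure D4:**
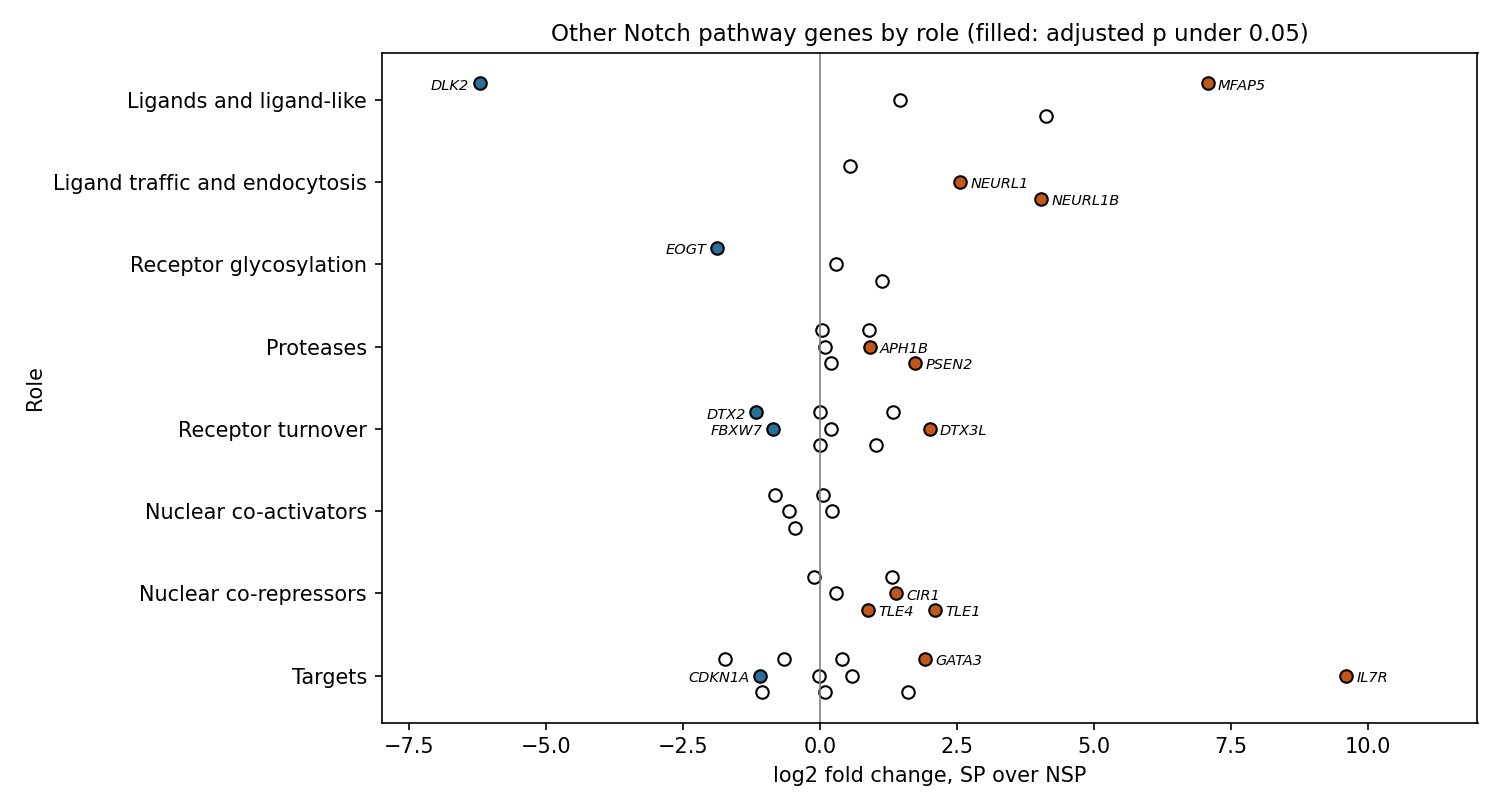
log2 fold change (SP over NSP) of 46 other Notch pathway genes by role, 1 point per gene; orange points are called higher in SP, blue points lower, and open points are not called. Calls in both directions occur among ligand-like, turnover and target genes, and none among the 5 co-activators.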

How the data were processed

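Per the file headers, the deposited file is 1 fixed-width table, read here by character position (163 fields of 8 characters). The exon reads deposited by the authors are whole-number counts per gene, 1 field per library. The sources used here name no aligner, genome build or annotation. Gene names are cut at 8 characters, and 9820 entries with 9.37% of the reads could not be used by name. The 143 other per-library fields were not used. The fields touch, so no column could be declared as counts, and limma-voom, the written fallback for the planned quasi-likelihood count test, was run (limma 3.58.1, R 4.3.3; offset 0.5; group only; two-sided). Scaling was by TMM factors computed here (trims 30% and 5%). Genes needed 0.508 CPM (10 reads in the median library) in 4 libraries, or in as many as the smaller group has when a library is left out, and 15 reads in all. The exon length field, 1 value per gene, gave CPM per kilobase. The procedure was run on simulated counts with few changed genes, balanced in direction, and the same dispersion for every gene. These data differ, with 30.8% of tested genes called, so that run checks the code and not the calls made here. The members and lists were chosen with earlier results of these data known. Named pathway genes were those called, up to 3 per role and direction by smallest p; the uncalled genes named beside them were chosen after their values were seen, for contrast. SOX17 and SOX10 each stand in 2 marker lists, and HEY2 in a marker list and the pathway list. Figures used matplotlib 3.10.9.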

Additional observations from a re-analysis of the deposited data

Results flagged for a closer look

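HEY1 in SP library 4 stood apart from the rest of its group: 314.1 CPM against 114.1 to 140.1 CPM in the other 3 SP libraries. On the CPM scale, its distance to the next library was 0.870 of the whole range, above Dixon's 95% critical value for 4 values. It was the 1 such value among 16 member and group combinations, where chance gives about 1 in 20. The flag holds for CPM only, as the log scale of the fits was not used for it. SP library 4 also had the highest summed endothelial, arterial and mural markers of the SP libraries, at 18042, 279.9 and 122 CPM. Of the arterial sum, 216.6 CPM was SOX17, which also stands in the endothelial list. Of the mural sum, 92.8 CPM was TAGLN, and without it SP library 1 was highest. HEY1 did not share the SP order of any of the 10 summed marker lists. It did share that of the epithelial sum once KRT12, the largest gene of that list, was left out. The part of these markers in the HEY1 level was not tested.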

How the results depend on the processing

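JAG1, DLL4, RBPJ and HEYL kept their direction and call in all 15 alternatives: 6 planned settings, plain library totals (added after seeing the data) and 8 fits that each leave out 1 library. Their log2 fold changes ranged from -2.16 to -1.53 for JAG1, 4.76 to 5.85 for DLL4, 1.33 to 1.67 for RBPJ and 2.71 to 4.39 for HEYL. NOTCH2, NOTCH4 and HEY1 were called in none (adjusted p at least 0.166), and HES1 in 3. The median of all genes moved by -0.11 with median-ratio and -0.19 with upper-quartile factors, and the share of calls higher in SP from 56.9% to 50.9% and 45.9%. The count of other pathway genes lower in SP was 5, but 8 with sample quality weights, and 3 to 9 without 1 library (9 without SP replicate 4, 3 without NSP replicate 2). No paired analysis was possible because the columns carry no replicate number; the sample titles are numbered 1 to 4 in each group, but nothing ties a title to a column. The edgeR and DESeq2 alternatives were not run, as no column could be declared as counts. Few reads limit DLL4 and HEYL in NSP.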
